A study of Homo sapiens with 9 samples.

Results

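The genes described here are 9 members of the DOCK family of guanine nucleotide exchange factors, namely DOCK1, DOCK3, DOCK4, DOCK5, DOCK6, DOCK8, DOCK9, DOCK10 and DOCK11, in HaCaT keratinocytes, a human keratinocyte line that grows without limit in culture. They were found by gene symbol among the 16199 genes with a value in at least 1 of the 9 libraries, and all 9 members were listed in every library. The family was taken up because DOCK8 fell under both treatments, so that it was chosen by the DOCK8 values of both treatments against untreated cells, which are given as a description, with no test. The other family genes were not analysed here. RNA sequencing compared 3 groups of 3 libraries of wild-type HaCaT cells: untreated cells in serum-free medium, cells given epidermal growth factor (EGF, 10 nM) and cells given bleogen pB1 (1 µM), a cystine-knot miniprotein of the cactus Pereskia bleo that acts on the same receptor as EGF. Treatment was for 24 h and began once the cells were confluent. The doses of the 2 agents differed. The labels do not say whether replicates were separate cultures, so that p-values measure only the spread between these libraries, which may be technical.

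DOCK proteins switch on the small GTPases Rac and Cdc42, which drive actin assembly at the cell edge, by exchanging their GDP for GTP through a catalytic region called DHR-2 that is unlike the DH domain of the larger Dbl family of exchange factors. The members fall into 4 subfamilies: DOCK-A (here DOCK1 and DOCK5) and DOCK-B (DOCK3 and DOCK4) act on Rac and bind ELMO adaptors, DOCK-C (DOCK6 and DOCK8) acts on Cdc42 or on both GTPases, and DOCK-D (DOCK9, DOCK10 and DOCK11) acts on Cdc42. DOCK8 is best known from blood cells, where its inherited loss causes an immunodeficiency with severe eczema and viral skin infections. In migrating keratinocytes, Rac and Cdc42 shape the leading edge that closes a wound.

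The libraries held between 20288417 and 21320994 expected counts, which are estimated read numbers per gene. At this depth 3 counts, set here as the limit under which a level is not resolved, were 0.141 to 0.148 CPM (counts scaled to library size), for counting error only. Lower counts were listed for some genes. Keratinocyte markers were present in every library, with the 6 markers KRT5, KRT14, TP63, DSG3, DSC3 and SFN summing to 10670 to 11900 CPM in untreated, 8664 to 9060 CPM under EGF and 10520 to 12320 CPM under bleogen pB1. The sum hides a split between untreated and EGF-treated cells. The mean of KRT5 fell from 7811 to 3604 CPM and that of DSC3 from 399 to 282 CPM. Higher under EGF were KRT14 (1578 to 2908 CPM), TP63 (221 to 313 CPM), SFN (1268 to 1571 CPM) and, with overlapping libraries, DSG3 (173 to 182 CPM). Of 6 blood cell markers 1 was at 0 in every library, and the summed level of the other 5 was 0.530 to 0.955 CPM in untreated, 0.550 to 2.87 CPM in EGF-treated and 0.573 to 1.08 CPM in bleogen pB1-treated cells. The 5 fibroblast markers summed to 3.13 to 4.44, 0.722 to 1.40 and 3.11 to 4.01 CPM in the same order. The 4 endothelial markers summed to 1.39 to 1.52, 0.250 to 0.655 and 0.749 to 1.34 CPM, and the 4 melanocyte markers, of which TYR was at 0 throughout, to 1.35 to 1.58, 0.750 to 1.30 and 0.928 to 1.53 CPM. The fibroblast and endothelial sums were therefore low everywhere and lowest under EGF, and their part in the results below was not tested.

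Genes were compared with edgeR's quasi-likelihood test over 12394 genes, and a gene was called where its Benjamini-Hochberg adjusted p was at most 0.05 and its log2 fold change at least 0.5 in size. All 9 members passed the count filter, which asks for about 0.485 CPM in at least 3 libraries. DOCK3 and DOCK8 reached that level in all untreated and bleogen pB1 libraries and in 0 of the 3 EGF libraries, so that they entered the test through the groups in which they were higher. DOCK10 reached it in 2 untreated, 2 EGF and 1 bleogen pB1 library.

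The levels of the members in untreated cells were compared per length, as FPKM (fragment counts divided by gene length and library depth). DOCK9 had 9.61 ± 0.95 FPKM (SD, n = 3), DOCK5 8.67 ± 0.55 FPKM and DOCK1 8.59 ± 0.40 FPKM. The libraries of these 3 genes overlapped, so that their order was not resolved. DOCK6 followed with 2.45 ± 0.02 FPKM and DOCK8 with 0.863 ± 0.121 FPKM, each apart from its neighbours in the order in every untreated library. DOCK11, DOCK3, DOCK10 and DOCK4 lay between 0.06 and 0.17 FPKM in all untreated libraries. Under EGF, DOCK8 had 0.0167 ± 0.0115 FPKM, the lowest mean of the 9, and DOCK4, with 0.370 ± 0.030 FPKM, took the fifth place in the order.

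**Figure D1:**
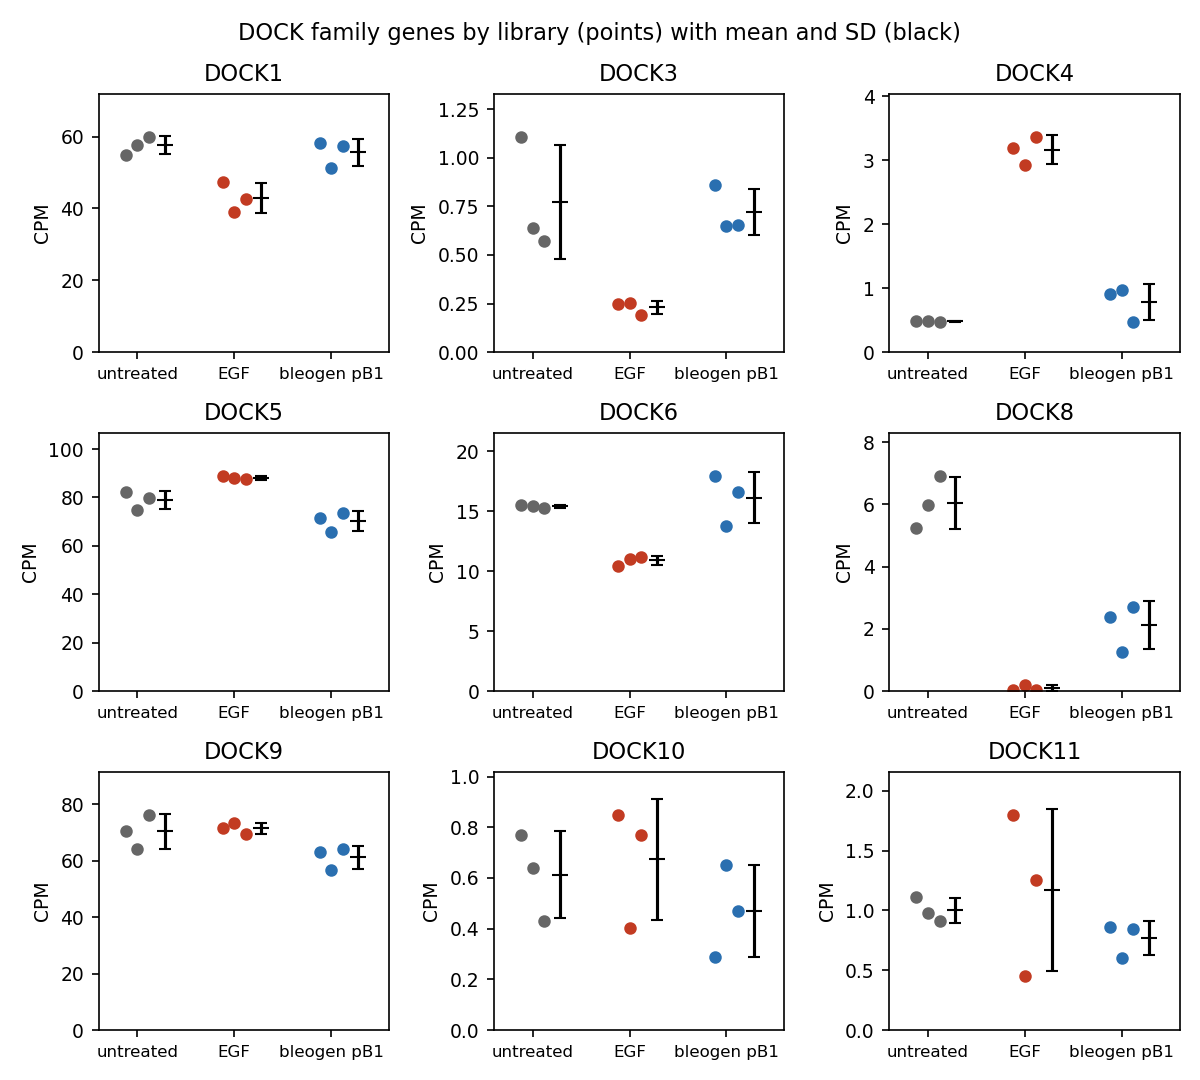
Level of each DOCK family gene in CPM (vertical axes, each starting at 0 and with its own scale) in the 3 untreated, 3 EGF-treated and 3 bleogen pB1-treated libraries; coloured points are libraries, and black marks are the mean with its SD. DOCK8 separates all 3 groups, from 6.06 CPM in untreated to 2.12 CPM under bleogen pB1 and 0.0998 CPM under EGF, and DOCK4 is highest under EGF at 3.16 CPM.

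DOCK8 (NCBI gene 81704; chromosome 9, 214854 to 465259, plus strand, GENCODE release 44 on GRCh38) is the member that chose the family. Its expected counts were 109, 122 and 145 in untreated cells, 50, 27 and 58 in bleogen pB1-treated cells and 1, 4 and 1 in EGF-treated cells. The 3 groups did not overlap, and 2 of the 3 EGF libraries were under the limit of 3 counts. Against untreated cells, the libraries of 29.1% of all genes did not overlap under bleogen pB1 and those of 70.4% under EGF. In CPM the DOCK8 levels were 5.25, 5.99 and 6.93 in untreated cells, 2.39, 1.25 and 2.72 under bleogen pB1 and 0.04999, 0.2014 and 0.04814 under EGF. Over each group, bleogen pB1-treated cells held 34.9% of the untreated level, which was 2.87-fold lower (exact Clopper-Pearson 95% interval of the count ratio 2.35 to 3.52). EGF-treated cells held 1.63% of it from 6 counts in all, 61.3-fold lower (95% interval 27.9 to 168). These intervals cover counting error only. They are no test of the fall, which chose the family and may be overstated by that choice. The fitted log2 fold change under bleogen pB1 was −1.51 and that under EGF −5.85. On log2(FPKM + 1) these were −0.52 and −0.87. The value under bleogen pB1 was −1.25 without bleogen pB1 replicate 2, the library with the fewest DOCK8 counts of that group.

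The direct comparison of EGF with bleogen pB1 is made of the same treated libraries that chose the family, and DOCK8 is described in it with no test too. DOCK8 was lower under EGF, with a fitted log2 fold change of −4.34, and all 3 EGF libraries lay below all 3 bleogen pB1 libraries, as the groups did not overlap for 62.4% of all genes. In counts this was a 21.4-fold difference (95% interval 9.57 to 59.3, counting error only). On log2(FPKM + 1), a scale that compresses genes of this level, the difference was −0.35. The length that the deposited tables give DOCK8, an average over the transcripts to which its reads were assigned, was 7159 bases in each of the 9 libraries, although 3 RefSeq transcripts were listed for the gene.

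RefSeq gives DOCK8 2 start sites, and the 250 bases before each are shown because DOCK8 is the member that fell furthest. The first lies at the 5′ end of the gene, where the annotation also places the first exon of the antisense RNA DOCK8-AS1 on the other strand, and its last bases lie in the first exon of another annotated DOCK8 transcript. The second lies inside the gene. Capitals mark matches, on either strand, to a motif that was searched for (RefSeq promoters, GRCh38.p14, plus strand, 5′ to 3′).
DOCK8, first start, chr9:214615-214864: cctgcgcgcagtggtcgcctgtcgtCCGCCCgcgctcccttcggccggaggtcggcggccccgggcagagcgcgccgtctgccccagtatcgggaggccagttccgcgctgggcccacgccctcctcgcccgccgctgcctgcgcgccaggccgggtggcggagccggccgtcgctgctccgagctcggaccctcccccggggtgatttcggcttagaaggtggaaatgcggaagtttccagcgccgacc
DOCK8, second start, chr9:272796-273045: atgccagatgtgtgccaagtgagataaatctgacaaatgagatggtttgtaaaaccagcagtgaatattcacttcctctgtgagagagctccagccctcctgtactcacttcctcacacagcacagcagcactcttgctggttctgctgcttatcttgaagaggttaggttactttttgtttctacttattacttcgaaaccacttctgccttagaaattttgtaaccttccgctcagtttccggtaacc
The first window was 75.2% G and C with 36 CpG dinucleotides, against a median of 11 over all 35116 RefSeq promoters of this length. The second was 43.6% G and C with 3 CpG. The motifs searched on both strands were AP-1 (TGANTCA), CRE (TGACGTCA), E-box (CACGTG), ETS (CCGGAAGT), SP1 (GGGCGG), STAT (TTCNNNGAA) and the ISRE core (GAAA, any 2 bases, GAAA). The first window held 1 SP1 match, at −225 to −220 from the start, a motif found in 42.6% of all promoters. The second held none of the 7. No match says only that these letters are not in this window.

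The genes around DOCK8 were read from the same libraries. DOCK8-AS1, listed under its older symbol C9orf66, had at most 3.64 expected counts in any library. ZNG1A (listed as CBWD1), which comes before DOCK8 and has close copies elsewhere in the genome that could share its reads, had 20.3 ± 0.8 CPM in untreated, 28.5 ± 2.9 CPM in EGF-treated and 21.9 ± 1.6 CPM in bleogen pB1-treated cells. KANK1, a regulator of actin at the cell cortex that follows DOCK8, had 41.5 ± 0.7, 30.9 ± 1.6 and 36.6 ± 2.4 CPM in the same order. Against untreated cells under EGF, ZNG1A was higher by a log2 fold change of 0.49 (adjusted p = 0.000436) and KANK1 lower by −0.43 (adjusted p = 0.000196), both within the limit of 0.5. Neither was called under bleogen pB1, where the values were 0.11 (adjusted p = 0.521) and −0.18 (adjusted p = 0.156). These levels are a description, in which reads of ZNG1A may come from its copies, and no cause of the DOCK8 fall was tested. Whether the counting used the strand is not stated in the sources used here, so that reads of DOCK8 and its antisense RNA may not have been told apart.

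Of the other 8 members, 0 were called under bleogen pB1, where 1.48% of all genes tested were called (183 of 12394, 0.218% higher and 1.26% lower). The count over all genes rested on single libraries: it was 436 without bleogen pB1 replicate 1, 109 without bleogen pB1 replicate 2, and 102 without bleogen pB1 replicate 3 or without untreated replicate 1. DESeq2 gave an adjusted p for 4 of the 8 (DOCK1, DOCK5, DOCK6 and DOCK9) and called 0 of these. In edgeR DOCK5 and DOCK9 had an unadjusted p under 0.05, a threshold whose share over all genes was not counted. The stricter adjusted p of at most 0.05, at any fold, was met by 4.11% of all genes. Under EGF 2 of the 8 were called, DOCK4 higher and DOCK3 lower, where 36.9% of all genes were called (15.1% higher and 21.8% lower). In this comparison 41% of the genes called were higher, and 30.2% with upper-quartile scaling factors, which moved the median log2 fold change of all genes from −0.01 to −0.12. For the 8 members the split was 1 higher and 3 lower with upper-quartile factors and 1 higher and 2 lower with none. Between EGF and bleogen pB1, DOCK4 was called higher and DOCK3 and DOCK6 lower under EGF, where 28.8% of all genes were called (10.8% higher and 18.0% lower). DOCK8 chose the family and is described only, so that it is not counted among these calls. The comparisons of the 2 agents with untreated cells share the same 3 control libraries.

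**Figure D2:**
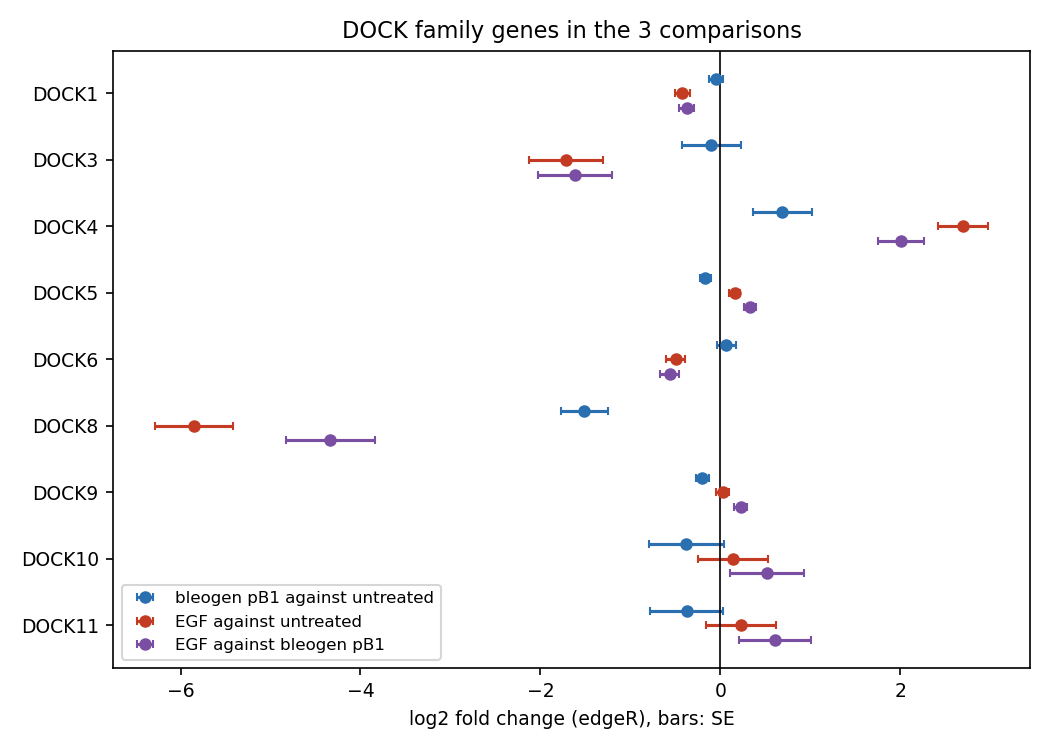
Log2 fold change (horizontal axis, edgeR) of the 9 DOCK family genes in the 3 comparisons. Points are estimates and bars their SE, which for DOCK8 are a description and no test. DOCK4 lies at 2.69 and DOCK3 at −1.72 for EGF against untreated cells, whereas the 8 members other than DOCK8 lie between −0.38 and 0.69 for bleogen pB1.

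Among the DOCK-A members, DOCK1 (chromosome 10, 126905409 to 127452517), the founding member that works with ELMO and Crk in cell migration and in the uptake of dying cells, had 55.0, 57.7 and 59.99 CPM in untreated cells. It had 47.3, 38.9 and 42.5 CPM under EGF and 58.1, 51.4 and 57.5 CPM under bleogen pB1. Its EGF libraries all lay below the others, where 70.4% of all genes did not overlap with untreated and 62.4% with bleogen pB1 cells. The log2 fold change was −0.42 under EGF (edgeR, SE 0.08, adjusted p = 0.000498), which is short of the limit of 0.5, and −0.05 under bleogen pB1 (SE 0.08, adjusted p = 0.766). An adjusted p of at most 0.05 at any fold was met by 66.1% of all genes under EGF and by 4.11% under bleogen pB1. Between the agents DOCK1 differed by −0.38 (adjusted p = 0.00161).

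DOCK5 (chromosome 8, 25184689 to 25418082), a Rac exchange factor close to DOCK1, had 82.2, 74.9 and 79.8 CPM in untreated, 89.0, 87.9 and 87.5 CPM in EGF-treated and 71.3, 65.6 and 73.8 CPM in bleogen pB1-treated cells. The 3 groups did not overlap, with untreated cells in the middle. The libraries of 70.4% of all genes did not overlap between EGF-treated and untreated cells and those of 29.1% between bleogen pB1-treated and untreated cells. The log2 fold change was 0.16 under EGF (SE 0.06, adjusted p = 0.0373) and −0.17 under bleogen pB1 (SE 0.06, adjusted p = 0.134), and EGF-treated cells were higher than bleogen pB1-treated cells by 0.33 (SE 0.06, adjusted p = 0.000637). None of these reached the fold limit.

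The deposited length of DOCK5 varied between libraries, which the tables derive from the shares of its 2 listed RefSeq transcripts. It was 9236.5, 9390.5 and 9156.6 bases in untreated cells, 9082.5, 9187.5 and 9551.4 bases under EGF and 9732.1, 9794.2 and 9533.5 bases under bleogen pB1. All 3 bleogen pB1 libraries were above all 3 untreated libraries, by 425.4 bases on average (exact permutation test, two-sided, p = 0.1, the smallest that 3 against 3 libraries allow). EGF-treated and untreated cells overlapped and differed by 12.6 bases (exact permutation test, p = 0.9), and EGF-treated cells differed from bleogen pB1-treated cells by −412.8 bases (exact permutation test, p = 0.2). The lengths of DOCK1 (6816 to 6828.4 bases) and DOCK9 (7360.4 to 7490.2 bases) varied less, that of DOCK10 was 7288 bases in all libraries but bleogen pB1 replicate 2 (7431 bases), and the other 5 members had 1 length throughout. These are 3 of the exact permutation tests of length that were run, 3 for each of the 9 members, and none of them could give less than p = 0.1.

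**Figure D3:**
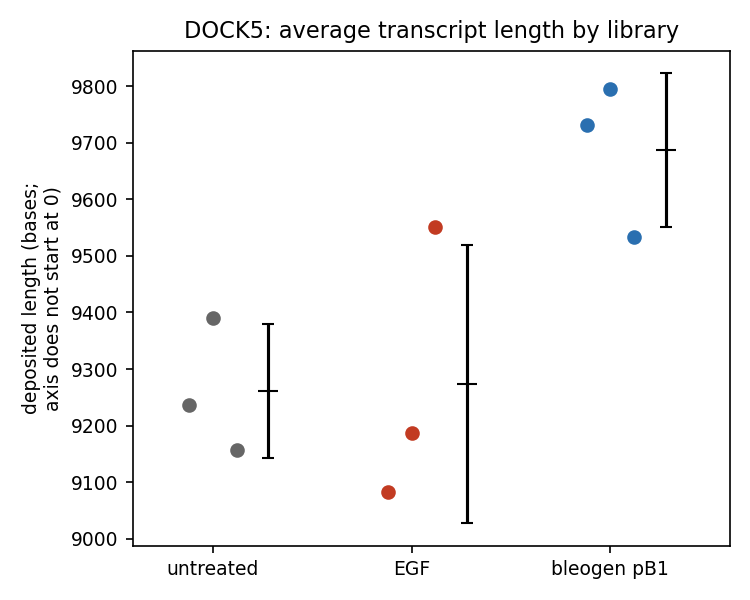
Deposited length of DOCK5 in bases (vertical axis, not starting at 0) in each library of the 3 groups; points are libraries and black marks the mean with its SD. The bleogen pB1 libraries sit between 9533.5 and 9794.2 bases, above the untreated libraries, whose highest value is 9390.5 bases.

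The DOCK-B members moved in opposite directions under EGF. DOCK4 (chromosome 7, 111726110 to 112206407), a Rac exchange factor linked to cell migration, had 10 expected counts in each untreated library, 64, 58 and 70 in the EGF libraries and 19, 21 and 10 in the bleogen pB1 libraries. In CPM it had 0.484 ± 0.007 in untreated cells, 3.16 ± 0.23 under EGF and 0.783 ± 0.275 under bleogen pB1. The EGF libraries all lay above the rest, and bleogen pB1 replicate 3, at 0.468 CPM, lay just below the untreated libraries. For 70.4% of all genes the EGF libraries did not overlap with untreated ones, and for 62.4% with bleogen pB1 ones. DOCK4 rose under EGF by a log2 fold change of 2.69 (edgeR, SE 0.28, adjusted p = 3.38e-06), a count ratio of 6.55 (95% interval 4.44 to 9.97, counting error only). Under bleogen pB1 the change of 0.69 did not pass (SE 0.33, adjusted p = 0.244), and DOCK4 was higher under EGF than under bleogen pB1 by 2.01 (SE 0.26, adjusted p = 2.94e-05).

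DOCK3 (chromosome 3, 50674927 to 51384198), known chiefly from neurons, had 23, 13 and 12 expected counts in untreated cells, 5, 5 and 4 under EGF and 18, 14 and 14 under bleogen pB1. Between EGF and untreated cells 70.4% of all genes did not overlap, and between EGF and bleogen pB1 62.4%. For DOCK3, every EGF library lay below every other library. On the log2 scale it fell by 1.72 under EGF (edgeR, SE 0.41, adjusted p = 0.00236), a count ratio 3.35-fold lower (95% interval 1.82 to 6.58, counting error only), and the difference between EGF and bleogen pB1 was −1.62 (SE 0.41, adjusted p = 0.00464). Under bleogen pB1 it was −0.10 (SE 0.33, adjusted p = 0.891), and 0.25 without untreated replicate 1. DOCK3 passed the count filter through the untreated and bleogen pB1 libraries alone. With no count filter its change under EGF was −1.71 (SE 0.45, adjusted p = 0.00333). Both members are scarce, at no more than 0.13 FPKM in untreated cells. On log2(FPKM + 1) the changes under EGF were 0.37 for DOCK4 and −0.09 for DOCK3, and neither was called.

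The 250 bases before the RefSeq starts of these 2 genes are shown because they are the members called under EGF (GRCh38.p14, each 5′ to 3′ on the strand of its gene, capitals as above).
DOCK4, chr7:112206400-112206649, minus strand: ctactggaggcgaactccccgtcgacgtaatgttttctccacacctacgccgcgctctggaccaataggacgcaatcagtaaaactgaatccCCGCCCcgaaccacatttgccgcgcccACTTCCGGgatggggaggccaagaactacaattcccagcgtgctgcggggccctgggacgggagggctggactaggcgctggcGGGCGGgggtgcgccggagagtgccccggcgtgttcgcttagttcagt
DOCK3, chr3:50674677-50674926, plus strand: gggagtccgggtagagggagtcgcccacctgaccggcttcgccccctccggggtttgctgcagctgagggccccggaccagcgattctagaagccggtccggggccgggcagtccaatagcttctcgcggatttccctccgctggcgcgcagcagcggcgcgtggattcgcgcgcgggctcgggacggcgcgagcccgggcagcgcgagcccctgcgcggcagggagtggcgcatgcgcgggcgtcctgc
The DOCK4 window was 63.6% G and C with 24 CpG and held an ETS match at −131 to −124 (3.42% of all promoters hold one) and SP1 matches at −158 to −153 and −48 to −43. Its bases nearest the start lie in the first exon of another annotated DOCK4 transcript. The DOCK3 window was 74.4% G and C with 35 CpG and held none of the 7 motifs. RefSeq promoters were found for 7 of the 9 members, 11 windows in all, and the matches in them were SP1 except for the ETS match of DOCK4. Over all promoters, 6.57% held the AP-1 motif, 1.65% the CRE, 6.34% the E-box, 6.57% the STAT motif and 3.02% the ISRE core. A match is a description and does not show that a factor binds there.

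In the DOCK-C subfamily, DOCK6 (chromosome 19, 11199295 to 11262524), an exchange factor for Rac and Cdc42, is the relative of DOCK8 with the higher level. It had 15.5, 15.4 and 15.3 CPM in untreated, 10.5, 11.03 and 11.2 CPM in EGF-treated and 18.0, 13.8 and 16.6 CPM in bleogen pB1-treated cells. The EGF libraries of DOCK6 were below all others, where 70.4% of all genes did not overlap with untreated and 62.4% with bleogen pB1 cells. Its bleogen pB1 libraries lay on both sides of the untreated ones. The log2 fold change under EGF was −0.50 (edgeR, SE 0.11, adjusted p = 0.00123), just inside the limit at −0.498 and so not called. It was called in 6 other settings, at −0.60 with upper-quartile factors and at −0.50 and −0.52 without untreated or EGF replicate 3. Against bleogen pB1, DOCK6 was lower under EGF by −0.56 (SE 0.11, adjusted p = 0.000646), a call that was lost without bleogen pB1 replicate 1 (−0.48). Under bleogen pB1 alone the value was 0.07 (SE 0.10, adjusted p = 0.752).

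No DOCK-D member was called in any of the 3 comparisons. DOCK9 (chromosome 13, 98793429 to 99086625), a Cdc42 exchange factor also named zizimin 1, had 70.7, 64.2 and 76.4 CPM in untreated, 71.5, 73.6 and 69.6 CPM in EGF-treated and 63.3, 56.6 and 64.1 CPM in bleogen pB1-treated cells. EGF-treated and untreated cells overlapped, with a log2 fold change of 0.02 (edgeR, SE 0.07, adjusted p = 0.795) whose sign turned with the scaling factors. The bleogen pB1 libraries were just below the lowest untreated library, with a log2 fold change of −0.20 (SE 0.07, adjusted p = 0.137), and EGF exceeded bleogen pB1 by 0.22 (SE 0.07, adjusted p = 0.0207). DOCK10 (chromosome 2, 224765090 to 225042468), known from lymphocytes, had 6 to 17 expected counts in any library, and its groups overlapped in all 3 comparisons. DOCK11 (chromosome X, 118495815 to 118686163), another Cdc42 exchange factor of blood cells, had 23, 20 and 19 expected counts in untreated cells, 36, 9 and 26 under EGF and 18, 13 and 18 under bleogen pB1. Its EGF libraries spread widely on both sides of the untreated ones. The log2 fold changes of DOCK10 and DOCK11 under EGF were 0.14 (SE 0.39) and 0.23 (SE 0.39) and under bleogen pB1 −0.38 (SE 0.41) and −0.38 (SE 0.41), with adjusted p from 0.624 to 0.769, and a change of the size of the limit was not resolved at these counts. Without EGF replicate 2, the library with 9 counts, DOCK11 was called higher under EGF than under bleogen pB1, at 0.99 (adjusted p = 0.0155), against 0.60 (adjusted p = 0.215) with it.

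The genes that work with DOCK proteins were read as 7 lists of 78 genes in all, of which 68 could be tested. Under bleogen pB1 1 of the 68 was called (1.47%, against 1.48% of all genes), and their median log2 fold change was 0.01, against −0.001 over all genes. Under EGF 10 were called higher and 8 lower (26.5%, against 36.9% of all genes), with a median of 0.10 against −0.01. The split was 9 higher and 11 lower with upper-quartile factors. Between EGF and bleogen pB1 9 were called higher and 8 lower (25%, against 28.8% of all genes), with a median of 0.07 against −0.01. That split was 7 higher and 9 lower with upper-quartile factors and with none.

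Among the adaptors of DOCK-A and DOCK-B proteins, the ELMO and Crk list, 1 of 5 genes tested rose and 1 fell under EGF. That was 40% of this list, against 36.9% of all genes. BCAR1, the p130Cas scaffold that links Crk and DOCK1 to integrins, rose from 77.6 ± 3.8 to 139 ± 5 CPM (log2 fold change 0.84, SE 0.06, edgeR adjusted p = 1.42e-07). ELMO3 fell from 48.4 ± 1.2 to 23.7 ± 3.4 CPM (−1.03, SE 0.10, adjusted p = 2.07e-06). ELMO2, at 42.7 ± 1.5 CPM in untreated and 44.02 ± 0.86 CPM in EGF-treated cells, was not called, and ELMO1 had at most 0.0955 CPM in any library. Of the DOCK8 binding proteins 0 of the 3 tested (LRCH1, MOB1A and MOB1B) were called in any comparison by edgeR or, where it gave an adjusted p, DESeq2. For all genes the share called by edgeR was 1.48% for bleogen pB1, 36.9% for EGF and 28.8% between the agents. An unadjusted edgeR p under 0.05 was met by 2 of the 3 DOCK8 binding proteins under EGF and 0 under bleogen pB1. Under EGF even the stricter adjusted p of at most 0.05, at any fold, was met by 66.1% of all genes. Neither of the other two, WAS and WIPF1, which carry DOCK8 signals to actin in lymphocytes, passed the filter. WAS had at most 0.675 CPM and WIPF1 at most 0.674 CPM in any library.

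Of the 6 small GTPases tested, RAC2 was the gene called under EGF. It rose from 109 ± 4 to 211 ± 12 CPM (log2 fold change 0.96, SE 0.07, edgeR adjusted p = 2.05e-07), whereas under bleogen pB1 it had 78.9 ± 7.2 CPM, a log2 fold change of −0.46 (SE 0.07, adjusted p = 0.00326) that is short of the limit. The direct difference was 1.42 (SE 0.07, adjusted p = 1.06e-08). RAC2 is a Rac GTPase known mainly from blood cells. RAC1, the Rac of most cell types, had 642, 719 and 662 CPM on average in untreated cells, under EGF and under bleogen pB1 and was not called, and neither was CDC42, with 290, 215 and 256 CPM (log2 fold change under EGF −0.43, SE 0.08, adjusted p = 0.000258). RAC3 was lower under EGF than under bleogen pB1 by −0.53 (SE 0.12, adjusted p = 0.00197). Of the 9 tested genes of the WAVE complex and WASP effectors, which carry the signal to Arp2/3-driven actin assembly, 0 were called in any of the 3 comparisons by edgeR or, where it gave an adjusted p, DESeq2. At an unadjusted edgeR p under 0.05 there were 1 for bleogen pB1, 5 for EGF and 3 between the agents. The share of all genes at that threshold was not counted. A stricter limit, an adjusted p of at most 0.05 at any fold, was met by 4.11%, 66.1% and 58.2% of all genes in the same order.

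Of 12 PAK and other effectors, 2 rose and 2 fell under EGF (33.3%, against 36.9% of all genes). CDC42EP2 and CDC42EP1, Cdc42 effectors of the BORG family that act on septins and actin, rose by log2 fold changes of 1.33 (edgeR, SE 0.08, adjusted p = 4.61e-08) and 1.12 (SE 0.10, adjusted p = 1.09e-06), while their relative CDC42EP5 fell, with −1.15 (SE 0.24, adjusted p = 0.00105). Of 15 GTPase-activating proteins and GDP dissociation inhibitors, which switch Rac and Cdc42 off or hold them in the cytosol, 3 rose and 2 fell. That was 33.3% of this list, against 36.9% of all genes. The largest fall was that of ARHGAP22 (−1.71, SE 0.33, adjusted p = 0.000568), from 3.10 ± 0.39 to 0.938 ± 0.340 CPM. ARHGAP31 rose, with 1.32 (SE 0.37, adjusted p = 0.00731), although the lowest EGF library lay within the untreated range, and ARHGAP24 fell, with −0.95 (SE 0.24, adjusted p = 0.00318). ARHGDIA, far more abundant, rose from 333 ± 15 to 591 ± 25 CPM (log2 fold change 0.83, SE 0.06, edgeR adjusted p = 1.65e-07). It was higher under EGF than under bleogen pB1 by 0.70 (SE 0.06, adjusted p = 1.04e-06).

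The exchange factors of the Dbl family act on the same GTPases through a different domain. Under EGF 3 of 18 tested genes were called higher and 3 lower (33.3%, against 36.9% of all genes). Their median log2 fold change was 0.10, against −0.01 over all genes. This list had the most tested genes of the 7, and it held the largest single fall (FGD3) and rise (PREX1) of the 68 genes. FGD3, a Cdc42 exchange factor, had 90.5, 94.6 and 84.1 CPM in untreated cells, 58.0, 33.3 and 48.6 CPM under bleogen pB1 and 3.75, 5.74 and 4.38 CPM under EGF. As for DOCK8, the 3 groups did not overlap and untreated cells were highest. Of all genes, 29.1% did not overlap between bleogen pB1 and untreated cells, 70.4% between EGF and untreated cells and 62.4% between the agents. On the log2 scale FGD3 fell by 0.94 under bleogen pB1 (edgeR, SE 0.16, adjusted p = 0.00465), the 1 call among the 68 genes there, and fell by 4.28 under EGF (SE 0.20, adjusted p = 3.31e-09). VAV3, an exchange factor activated by growth factor receptors, had 63.8 ± 3.2 CPM in untreated, 61.1 ± 1.8 CPM in bleogen pB1-treated and 8.11 ± 0.42 CPM in EGF-treated cells, and fell by 2.97 under EGF (SE 0.08, adjusted p = 4.01e-11). PREX1, a Rac exchange factor activated by phosphoinositides and G proteins, had 1.88 ± 0.44, 2.19 ± 0.12 and 8.42 ± 1.07 CPM in the same order, a rise of 2.16 under EGF (SE 0.19, adjusted p = 7.64e-07).

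**Figure D4:**
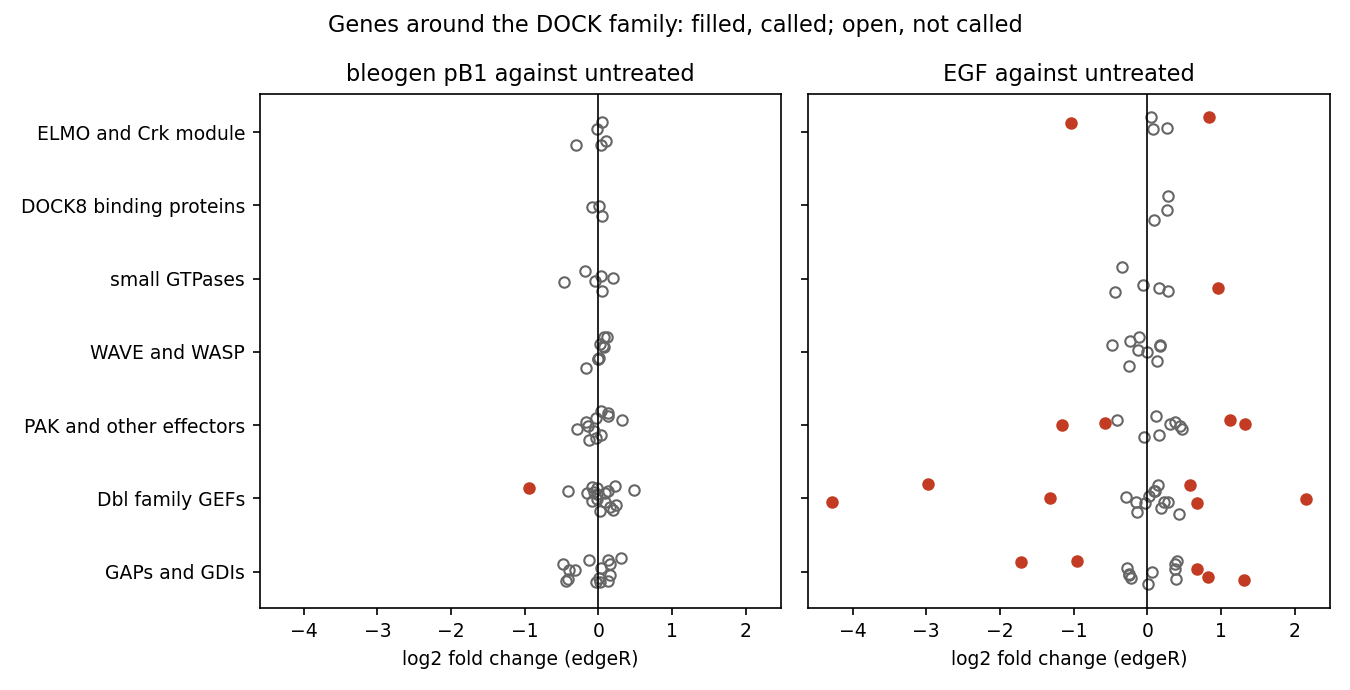
Log2 fold change (horizontal axes, edgeR) of the 68 tested genes of the 7 lists around the DOCK family, for bleogen pB1 and for EGF against untreated cells; each point is a gene, filled where called and open where not, and rows are the lists (vertical scatter within a row has no meaning). For bleogen pB1 the 1 filled point is FGD3 at −0.94, and for EGF 18 genes are filled, from FGD3 at −4.28 to PREX1 at 2.16.

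The pattern of DOCK8 was compared with that of 10940 other genes that had at least 50 counts on average in untreated cells. The measure was the Euclidean distance over the 6 treated libraries of the log2 CPM (prior count 2) less its untreated mean. It rests in part on DOCK8 counts of 1, 4 and 1 under EGF, and it is a description with no test. The nearest gene was FGD3, at a distance of 1.77, followed by SCEL (sciellin, a protein of the cornified envelope, 1.93), LAMP3 (a lysosomal membrane protein induced by interferon, 1.94), TRIM22 (an antiviral protein induced by interferon, 2.09) and PSG5 (a pregnancy-specific glycoprotein, 2.14). SCEL had 35.3 ± 2.0 CPM in untreated, 21.9 ± 5.7 CPM in bleogen pB1-treated and 1.48 ± 0.16 CPM in EGF-treated cells. TRIM22, the most abundant of the 5, had 204 ± 28, 102 ± 21 and 11.9 ± 0.8 CPM, and LAMP3 had 25.0 ± 3.4, 12.5 ± 1.1 and 1.32 ± 0.38 CPM. The bleogen pB1 libraries of PSG5 spread from 1.25 to 8.50 CPM around an untreated mean of 6.84 CPM.

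**Figure D5:**
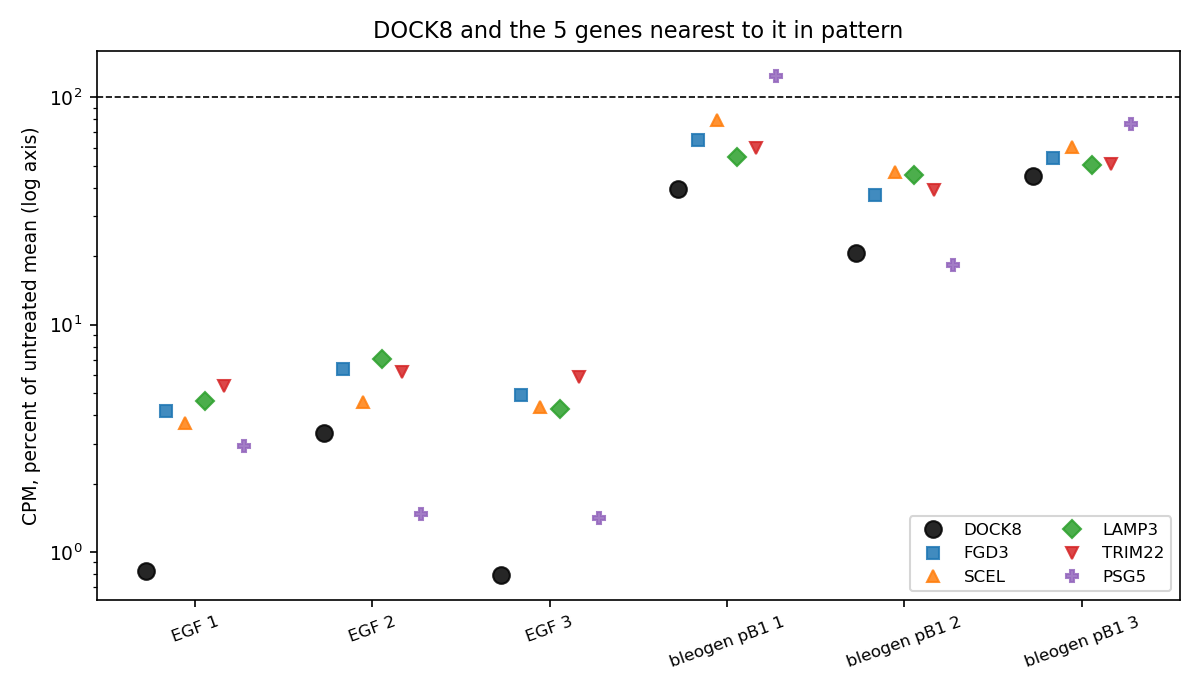
CPM of DOCK8 and of the 5 genes nearest to it in pattern, as percent of the untreated mean of each gene (vertical log axis, dashed line at 100%), in the 3 EGF and 3 bleogen pB1 libraries (horizontal axis, genes set side by side within a library). DOCK8 is among the lowest points under EGF, where its counts were 1, 4 and 1.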

How the data were processed

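Total RNA of 9 HaCaT libraries was sequenced. The authors name the PureLink kit and a BGISEQ instrument, the labels the RNeasy kit, dUTP-stranded libraries of polyadenylated RNA and the DNBSEQ platform. The expected counts, the FPKM values and the gene lengths deposited by the authors come from reads mapped to GRCh38.p12, and the counting program is not given in the sources used here. The lowest FPKM listed was 0.01, and a gene absent from a table was counted as 0. Groups were taken from the sample titles and labelled treatments. After rounding to whole numbers, the expected counts entered edgeR 4.0.16 (R 4.3.3): filterByExpr, TMM factors (0.964 to 1.02), glmQLFit and glmQLFTest on all 9 libraries (6 residual degrees of freedom), then p-values adjusted by Benjamini-Hochberg over 12394 genes. The thresholds are those of the authors. SE is the size of the log2 fold change over the square root of F. Lengths and single values were compared by exact permutation tests.

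Alternatives were DESeq2 1.42.0, limma 3.58.1 on log2(FPKM + 1) or log2(FPKM + 0.1), edgeR on the 6 libraries compared, other scaling factors, filters and fold limits, leaving out each library, and a replicate block. In simulated data for bleogen pB1 against untreated with 200 of 12394 genes changed 2-fold, 173 to 177 were recovered with 3 to 4 false calls, and for EGF against untreated 176 to 181 with 3 to 6. Far fewer genes were changed there than the 36.9% called under EGF. Recovery and false calls under so broad a response are therefore not shown. Coordinates are from GENCODE release 44, promoters from RefSeq (GRCh38.p14). The members, gene lists and motifs were chosen with earlier results of these data known. Named are all members, the 3 called genes of each list with the largest log2 fold change in a comparison, the genes that overlap a member or adjoin DOCK8, and the 5 nearest in pattern to DOCK8. Others (ELMO1, ELMO2, WAS, WIPF1, LRCH1, MOB1A, MOB1B, RAC1, CDC42) were named after their values were seen. Figures were drawn with matplotlib 3.10.9.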

Additional observations from a re-analysis of the deposited data

How the results depend on the processing

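Under bleogen pB1, the count of 0 called members of 8 was 0 in every setting tried, leaving out any library included, but DESeq2 gave no adjusted p for DOCK3, DOCK4, DOCK10 and DOCK11 and the filter of 10 counts in every library left 5 of the 8 members. Under EGF the 2 called members became 4 with upper-quartile factors, 0 with limma on log2(FPKM + 1) and 5 with no fold limit, and 2 to 3 with 1 library left out (DOCK6 was added without untreated or EGF replicate 3). Between EGF and bleogen pB1 the 4 members that met the criteria include DOCK8, which is a description. They became 2 with at least 10 counts in every library, where 5 members were tested and DOCK8 was not. They became 0 with limma on log2(FPKM + 1), 7 with no fold limit, and 3 to 5 with 1 library left out (3 without bleogen pB1 replicate 1, 5 without EGF replicate 2). Of the 68 genes around the family, the 1 call under bleogen pB1 became 0 with limma on log2(FPKM + 0.1) or a limit of 1, 3 with no fold limit, and 1 to 2 with 1 library left out (2 without bleogen pB1 replicate 1). The 18 calls under EGF became 46 with no fold limit, 10 at a limit of 1 and 18 to 19 with 1 library left out, and the 17 calls between the agents 37, 8 and 15 to 18. A larger or no fold limit changes these counts by construction, and the other causes were not tested. Fold changes that turned sign were all of uncalled genes. Under bleogen pB1 these were DOCK1 without bleogen pB1 replicate 2 (0.0032), DOCK3 without untreated replicate 1 (0.2497) and DOCK6 without bleogen pB1 replicate 1 (−0.0179). With 1 library left out they ranged from −0.08 to 0.0032 for DOCK1, from −0.2768 to 0.2497 for DOCK3 and from −0.0179 to 0.1643 for DOCK6. Under EGF DOCK9 turned with upper-quartile factors (−0.0809), no factors (−0.0342), limma on log2(FPKM + 1) and (FPKM + 0.1) (−0.0258 and −0.0279) and without untreated replicate 2 (−0.0403; up to 0.085 with another library left out). DOCK10 turned with the same limma settings (−2e-04 and −0.0064), without untreated replicate 3 (−0.0624; up to 0.4065 without EGF replicate 2) and without EGF replicate 1 (−0.053), and DOCK11 without EGF replicate 1 (−0.2156; up to 0.6128 without EGF replicate 2). DOCK8 under EGF, at −5.85, was −6.78 without EGF replicate 2, −0.87 with limma on log2(FPKM + 1) and −3.04 on log2(FPKM + 0.1), and under bleogen pB1, at −1.51, it was −0.52 on log2(FPKM + 1) and −1.25 without bleogen pB1 replicate 2. With the replicate number as a block, 0 members other than DOCK8 were called under bleogen pB1 and 2 under EGF, as without it. Between the agents DOCK4, DOCK3 and DOCK6 were still called. Of the genes around the family 1, 18 and 17 were called in the same order. Same-numbered libraries correlated between −0.03 and 0.21 in their deviations from the group means, so that the numbers were not taken as pairs. DOCK3, DOCK8, DOCK10 and DOCK11 had no value with at least 10 counts in every library, and depth limits what these 4 and DOCK4 can show.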
